A study of Mus musculus with 36 samples.

Results

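Mouse embryonic fibroblasts (MEFs) were compared between 2 sets of 3 RNA-seq libraries, 6 of the 36 in the series. They were chosen by column heading: the 3 columns headed GFP and 4 h replenished (called 4 h columns here) against the 3 headed GFP and deprived (deprived columns). All 32266 genes of the deposited table were read, and 13914 passed the filter on low values and were tested. The cells were 1 MEF line with floxed alleles of Vps15 (Vps15f/f), kept in DMEM. By their headings, all 6 libraries came from cells given an adenovirus that carries GFP, labelled WT, so that both groups carried the floxed alleles and the virus. Deprived cells had 4 h in methionine-free DMEM, and replenished cells had the same 4 h followed by 4 h with methionine. The other MEF groups were basal medium without serum, 1 h of replenishment, and the same 4 media after an adenovirus that carries CRE, labelled Vps15KO; 12 liver libraries were not analysed here. The labels do not say that the 3 libraries of a group were separate cultures. The p-values measure the spread within groups, estimated over all 24 MEF libraries, and this spread may be technical.

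The headings of the table may be displaced against the libraries, and results are therefore given by heading, with what the columns would be in a second reading. The labels number the 24 MEF libraries with both genotypes of a medium next to each other, whereas the headings run through all GFP groups and then all CRE groups. If the columns followed the library numbers, the deprived columns would be basal Vps15KO cells and the 4 h columns would be Vps15KO cells deprived of methionine for 4 h. The comparison would then be deprivation in knockout cells, not replenishment in control cells. Under that reading the GFP columns headed 1 h and basal would be deprived and basal WT cells. The sign of every difference below is the value in the 4 h columns minus that in the deprived columns under either reading.

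Methionine is an essential amino acid and the precursor of S-adenosylmethionine (SAM), the methyl donor for DNA, RNA, histones and phospholipids. Cells short of an amino acid activate the kinase GCN2 and with it translation of the transcription factor ATF4, which turns on amino acid carriers, tRNA synthetases and stress genes. SREBP2 drives cholesterol synthesis, NRF2 the antioxidant enzymes. Vps15, which the gene Pik3r4 encodes, is the regulatory partner of the class 3 PI3-kinase, a lipid kinase of autophagy and endosome traffic.

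Depth was even across the libraries. Counts recovered from the deposited values summed to 20403779 to 21101063 in the 6 libraries and to 19345029 to 21245006 in all 24. Messenger RNA of the mitochondrial genome took 1.57% to 1.66% of counts in the deprived columns and 1.32% to 1.35% in the 4 h columns. The mitochondrial ribosomal RNA genes mt-Rnr1 and mt-Rnr2 took 0.0291% to 0.0300% and 0.0118% to 0.0121%, also without overlap. The cause was not tested. Replicates of the compared groups differed by a chi-square of 1.81 to 4.25 per degree of freedom, where counting error alone gives 1. CRE library 3 at 4 h stood apart (16.3 and 18.1) and entered the shared estimate of spread. Fibroblast markers summed to 9947 to 10675 CPM (counts scaled to the total of the library, not to gene length) in the deprived columns and 7375 to 8029 in the 4 h columns. None of the 14 was at 0 in all 3 libraries of a group. Thy1 was near 0, however, with 0 to 1 counts per library in the deprived and 1 to 3 in the 4 h columns. Fap was also low, with 6 to 7 and 10 to 11 counts. Sums of other markers also differed without overlap. Leukocyte markers summed to 15.6 to 17.5 CPM in the deprived and 13.9 to 14.5 in the 4 h columns, with Tyrobp at 0 in both groups. Endothelial markers summed to 1.78 to 2.25 and 2.75 to 3.87 CPM, with Kdr at 0 in the deprived columns. Muscle and adipocyte markers summed to 11.9 to 12.4 and 6.94 to 7.92 CPM, with Lep at 0 in both groups. Neural markers summed to 230 to 233 and 193 to 202 CPM, mostly from Nes, Map2 and Sox2, with Sox10 at 0. Epithelial markers overlapped, at 1.09 to 1.40 and 1.00 to 2.18 CPM, with Krt14 at 0.

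Pik3r4 (chromosome 9, 105642995 to 105687655, GRCm38.p6) was read first. It stood at 35.9, 37.6 and 35.3 CPM in the deprived columns and at 39.9, 39.3 and 39.1 CPM in the 4 h columns. The ranges did not overlap. The log2 difference was 0.09 ± 0.05 (SE from the spread over all 24 MEF libraries, n = 3 libraries per group throughout). Pik3r4 did not pass the test (limma adjusted p = 0.143). By heading its mean was higher under CRE, labelled Vps15KO, than under GFP in all 4 media, against the label: 52.4 against 42.9 CPM in basal, 43.6 against 36.3 in deprived, 49.5 against 44.2 in 1 h and 40.8 against 39.5 in 4 h columns. If columns follow library numbers, each Vps15KO group lay below the WT group of its medium: 36.3 against 42.9 CPM in basal cells, 39.5 against 44.2 in deprived cells, 43.6 against 52.4 after 1 h and 40.8 against 49.5 after 4 h of replenishment. These means are a description. Which exons are floxed is not given in the sources used here, so how far a count over the gene reads the deletion is not known.

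Of the 13914 tested genes, 4630 (33.3%) were higher and 4563 (32.8%) lower in the 4 h columns at a limma adjusted p under 0.05, adjusted over all tested genes by the Benjamini-Hochberg method. At an unadjusted p under 0.05 there were 9533. Most of these differences were small: 6186 of the called genes differed by less than 0.5 on the log2 scale, and the median SE was 0.06. A change of at least 1 on the log2 scale was called for 329 genes that rose and 115 that fell. The 3 libraries of each group did not overlap for 9925 genes (71.3%). A call, or non-overlap, is thus common here, and the lists below are to be read against these shares and a median difference over all tested genes of −0.0037.

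**Figure D1:**
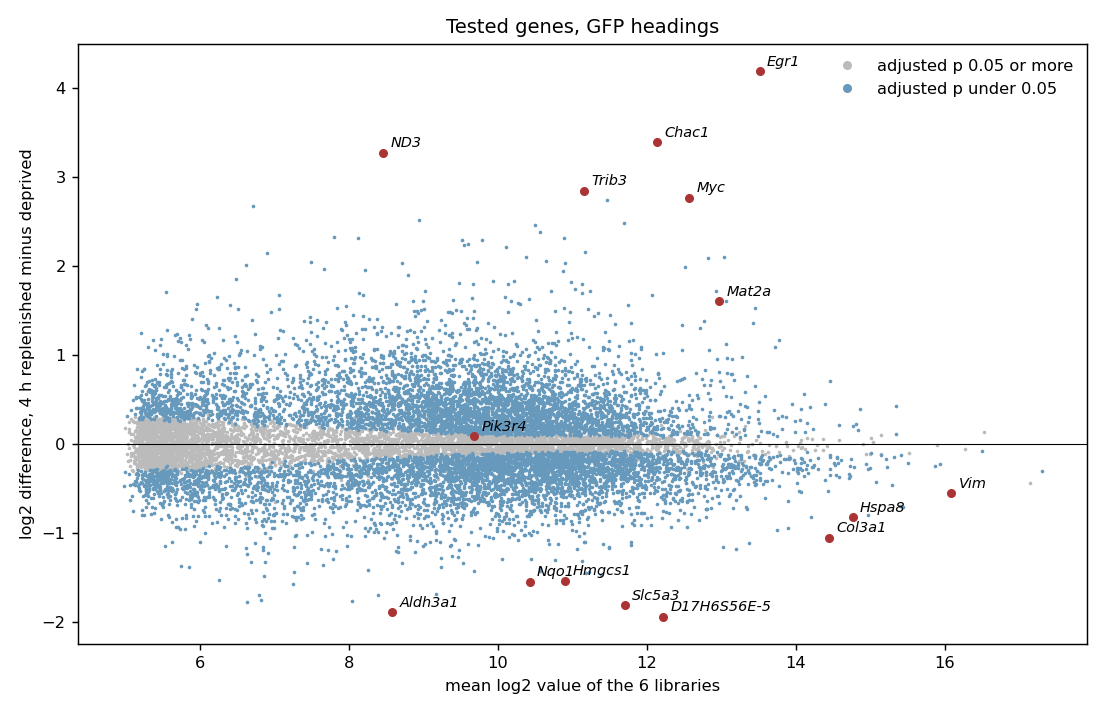
Log2 difference between the 4 h and deprived columns (vertical axis) against the mean log2 value of the 6 libraries (horizontal axis) for the 13914 tested genes, with calls at an adjusted p under 0.05 in blue and named genes in red. Egr1, Chac1 and ND3 lie at the top, with differences above 3, while D17H6S56E-5 and Aldh3a1 lie at the bottom, at −1.94 and −1.89.

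Genes of the ATF4 amino acid response were higher in the 4 h columns as a group. Of 52 tested members, 51 rose, 0 fell and Atf5 did not pass (0.06, adjusted p = 0.19); the median log2 difference was 1.00. Atf4 itself stood at 317, 323 and 336 CPM in the deprived columns and at 834, 852 and 874 CPM in the 4 h columns, a rise of 1.35 ± 0.04 (limma adjusted p = 1.27e-23). Chac1, a glutathione-degrading enzyme, showed the largest change of the list. Its libraries read 65.2, 59.4 and 69.5 CPM against 662, 704 and 752 CPM, a rise of 3.38 ± 0.05 (limma adjusted p = 1.33e-29). The pseudokinase gene Trib3, which restrains ATF4 and AKT signalling, read 36.7, 38.7 and 41.0 CPM against 283, 302 and 298 CPM (2.84 ± 0.05). For all these genes each 4 h library lay above every deprived library.

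Other members covered most branches of the response. Ppp1r15a, which directs dephosphorylation of eIF2α, rose by 2.31 from 38.4 to 40.0 CPM to 197 to 212 CPM. Sesn2, a leucine sensor that restrains mTORC1, rose by 2.10 from 28.4 to 29.3 CPM to 130 to 135 CPM. The stress transcription factor Atf3 rose by 2.52 from 7.68 to 8.80 CPM to 50.4 to 59.7 CPM, and Herpud1, a factor of protein degradation at the endoplasmic reticulum, by 2.05. Fgf21, a hormone induced by ATF4, was too low to be tested, with 1 to 5 counts per library in the deprived columns and 36 to 38 in the 4 h columns; the listed gene Gdf15 had 2 to 3 counts and 6 to 8.

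Promoter sequences are shown for the 3 members with the largest rises among those whose RefSeq window holds the amino acid response element TGATGNAA, on either strand, wholly before the start. The windows are the 250 bases before the annotated start in build GRCm38.p6, 5′ to 3′ on the gene's strand, and capitals mark the element. They are Chac1 at chr2:119350992-119351241 (plus strand), Atf3 at chr1:191183334-191183583 (minus strand) and Herpud1 at chr8:94386179-94386428 (plus strand).
Chac1: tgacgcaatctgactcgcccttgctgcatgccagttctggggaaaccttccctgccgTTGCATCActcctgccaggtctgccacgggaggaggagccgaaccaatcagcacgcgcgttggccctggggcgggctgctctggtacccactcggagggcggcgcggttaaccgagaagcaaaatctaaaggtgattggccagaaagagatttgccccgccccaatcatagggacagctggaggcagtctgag
Atf3: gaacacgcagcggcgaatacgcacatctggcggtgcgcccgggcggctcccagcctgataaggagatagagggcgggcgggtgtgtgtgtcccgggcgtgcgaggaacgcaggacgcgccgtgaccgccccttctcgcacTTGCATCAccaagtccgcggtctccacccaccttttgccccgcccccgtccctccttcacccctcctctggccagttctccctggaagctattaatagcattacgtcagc
Herpud1: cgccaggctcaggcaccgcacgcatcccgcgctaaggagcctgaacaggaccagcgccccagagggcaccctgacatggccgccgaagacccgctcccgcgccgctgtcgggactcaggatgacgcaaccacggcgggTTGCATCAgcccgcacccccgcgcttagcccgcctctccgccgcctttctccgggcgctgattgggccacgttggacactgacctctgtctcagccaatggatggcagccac
All 3 carry the reverse complement TTGCATCA, which begins 193 bases before the start in Chac1, 110 in Atf3 and 112 in Herpud1. In the full RefSeq windows, which also take in 50 bases after the start, 16 of 43 list members with a window held the element (37.2%), against 3.97% of 32851 promoters. Among tested genes with a window the share was 2.73% of 10604. The list was drawn from known ATF4 targets, and a match of letters is a description, not a binding site.

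Amino acid carriers and cytosolic tRNA synthetases were also mostly higher, but these lists share members with the ATF4 list. Of the genes named here, at least Slc7a5, Slc3a2, Slc1a4, Aars, Tars, Gars and Iars are counted there too. Their rises are not separate evidence. Of 23 tested carriers, 16 rose and 2 fell (median 0.52). Slc7a5 and Slc3a2, the subunits of the exchanger LAT1 for large neutral amino acids, methionine among them, rose by 1.52 and 1.60; Slc7a5 read 306 to 322 CPM against 903 to 951 CPM. Slc7a1, a carrier of cationic amino acids, rose by 1.67, Slc1a4 by 1.56 and the glycine carrier Slc6a9 by 1.36. Of 19 synthetase genes, 16 rose and 1 fell (median 0.69), led by those for alanine (Aars, 1.08), threonine (Tars, 1.05), glycine (Gars, 0.96) and isoleucine (Iars, 0.82). Mars1, which charges tRNA with methionine, read 147, 153 and 150 CPM against 250, 251 and 257 CPM, a rise of 0.71 ± 0.03 (limma adjusted p = 4.56e-18).

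**Figure D2:**
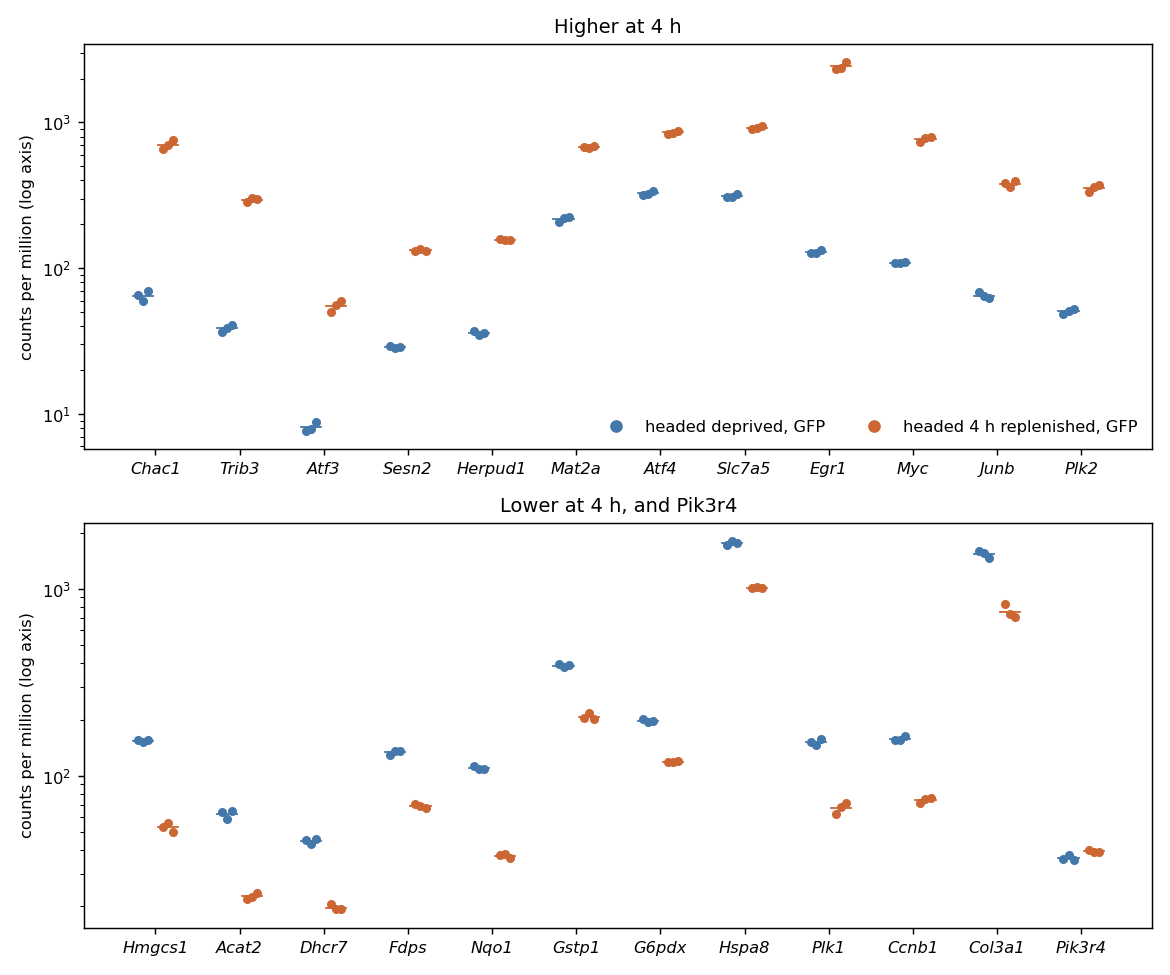
CPM of each library on a log axis for 24 genes, with the deprived columns in blue, the 4 h columns in orange and bars at the means. The difference passed the test for every gene shown except Pik3r4, whose mean was 36.3 CPM in the deprived and 39.5 CPM in the 4 h columns.

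The methionine cycle itself did not move one way: of 19 tested genes 8 rose and 7 fell, with a median of 0.04 that became −0.02 when each library was shifted to one median. Mat2a, the SAM synthetase of most tissues, stood at 209, 220 and 225 CPM in the deprived columns and at 681, 663 and 694 CPM in the 4 h columns. Its rise of 1.60 ± 0.15 (limma adjusted p = 5.14e-08) was the largest of the list. Enzymes that lead homocysteine onwards split: Cth, cystathionine γ-lyase, rose by 1.53, and Cbs, the step before it, fell by 0.84; Cbs was named after its value was seen. Mtrr, which reactivates methionine synthase, rose by 0.80.

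Folate and serine enzymes rose in 15 of 22 cases and fell in 3 (median 0.21). Mitochondrial Mthfd2 read 113, 129 and 132 CPM against 267, 266 and 285 CPM (1.09 ± 0.05). Psph, the last step of serine synthesis, rose by 1.09, mitochondrial Shmt2 by 0.80 and the mitochondrial folate carrier Slc25a32 by 0.69. The polyamine and methionine salvage list was mixed, with 7 of 19 higher and 9 lower (median −0.17): Mtap, which starts salvage from methylthioadenosine, fell by 0.53, whereas Odc1, the first enzyme of polyamine synthesis, rose by 0.58 and Srm by 0.55. Of 57 histone and DNA methyltransferase and demethylase genes, 34 rose and 5 fell (median 0.19). The demethylase genes Kdm6b, Kdm5b and Kdm4a rose by 1.16, 0.85 and 0.61, the arginine methyltransferase gene Prmt6 rose by 0.84, and Ehmt2, which methylates histone H3 at lysine 9, fell by 0.65 from 344 to 363 CPM to 228 to 230 CPM.

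Early response genes formed the other large group of rises: of 53 tested, 46 rose and 3 fell, with a median of 0.89. Egr1, a zinc finger factor induced by growth signals and stress, changed most of all tested genes that met the rule for naming. It stood at 127, 127 and 134 CPM in the deprived columns and at 2343, 2362 and 2581 CPM in the 4 h columns, a rise of 4.18 ± 0.04 (limma adjusted p = 1.17e-36). Myc, the growth regulator, read 109, 108 and 111 CPM against 730, 777 and 797 CPM (2.76 ± 0.05). Junb, an AP-1 subunit, rose by 2.48, Ier2 by 2.45 and the phosphatase gene Dusp5 by 2.21. Jund (0.00, adjusted p = 0.97) and Dusp1 (0.13, adjusted p = 0.068) did not pass, and the 3 that fell were Spry1 (−0.92), Spred1 (−0.34) and Etv4 (−0.22), feedback inhibitors of growth factor signalling in the case of Spry1 and Spred1; these 5 were named after their values were seen.

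Related signalling lists leaned the same way. Among NF-κB and inflammatory targets 20 of 30 rose and 2 fell (median 0.57): the prostaglandin synthase gene Ptgs2 read 156, 166 and 173 CPM against 697, 725 and 752 CPM (2.09), Lif rose by 1.83 and the inhibitor Tnfaip3 by 1.79. Of 30 YAP and SRF targets 17 rose and 2 fell (median 0.21), among them Ccn1 (2.16), Amotl2 (1.48) and Ajuba (1.45). Of 30 p53 targets 19 rose and 6 fell (median 0.26). Plk2 rose by 2.73 and Gadd45a, a stress-induced growth arrest gene, by 2.38, while the cyclin-dependent kinase inhibitor Cdkn1a read 27.7 to 33.0 CPM against 87.4 to 91.1 CPM (1.48). Gadd45b, outside this list, rose by 2.29. Of 25 TGF-β and BMP response genes 12 rose and 7 fell (median 0.17), with Tgif1 at 1.02 and Smad7 at 0.88.

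Of 19 tested clock genes 14 rose and 0 fell (median 0.56). Nfil3 rose by 2.24 from 14.1 to 16.9 CPM to 77.5 to 83.7 CPM. The repressor genes Ciart, Nr1d1 and Cry1 rose by 2.31, 1.62 and 0.97. Arntl, which encodes BMAL1, rose by 0.64 and Clock by 0.41, so that activator and repressor genes of the loop were both higher; these last 2 were named after their values were seen. Of 17 Wnt and Notch genes 5 rose and 5 fell, with Hes1 at 1.14, Jag1 at 0.83 and the Wnt antagonist Dkk2 at −1.45.

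Genes of ribosome assembly and genes of the ribosome itself moved in opposite directions. Of 56 nucleolar and assembly factors 51 rose and 3 fell (median 0.44), with Rrp12 at 1.03, Gnl3 at 0.97 and Nop58 at 0.84. Of 51 ribosomal protein and translation genes 0 rose and 44 fell (median −0.28). Rps4x read 948, 1024 and 987 CPM against 693, 696 and 693 CPM (−0.54 ± 0.04, limma adjusted p = 9.44e-14), Rpl10 fell by 0.53 and Rps23 by 0.70. Many ribosomal protein genes have processed pseudogenes that can share their reads. A list of small nucleolar RNA host genes and other noncoding genes did not follow either list, with 7 of 19 higher and 7 lower. The host genes Snhg15 and Snhg17 rose by 2.28 and 1.82, and the noncoding gene H19 fell by 0.91.

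Nuclear genes of the respiratory chain were lower: 0 of 51 rose and 42 fell (median −0.28). Cox7b of complex IV read 68.4, 78.9 and 73.9 CPM against 41.6, 42.3 and 40.1 CPM (−0.84 ± 0.06), Ndufb10 of complex I fell by 0.71, and Sdhd of complex II by 0.67. Of the 13 messages of the mitochondrial genome 3 rose, 1 fell and 9 did not pass. The libraries of the 2 groups did not overlap for 11 of the 13, against 71.3% of all tested genes. The test takes its spread from all 24 MEF libraries. In CRE library 3 at 4 h these messages took 0.64% of counts, against 1.62% and 1.63% in the other libraries of that group. The 9 that did not pass are thus not shown to be unchanged. ND3 stood at 3.18, 3.77 and 4.62 CPM in the deprived columns and at 48.7, 49.1 and 57.0 CPM in the 4 h columns (3.27 ± 0.22). ND2 fell by 0.96 from 857 to 999 CPM to 474 to 480 CPM. ATP8, at 0.74, lost its call in 9 of the alternatives and ND4L, at 1.02, was below 6 CPM; these 4 and COX1 had SEs of 0.21 to 0.31, and COX1 differed by −0.44 (adjusted p = 0.0788). Mitochondrial messages as a whole took a smaller share of counts in the 4 h columns (above), and the part of this in the single values was not tested.

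**Figure D3:**
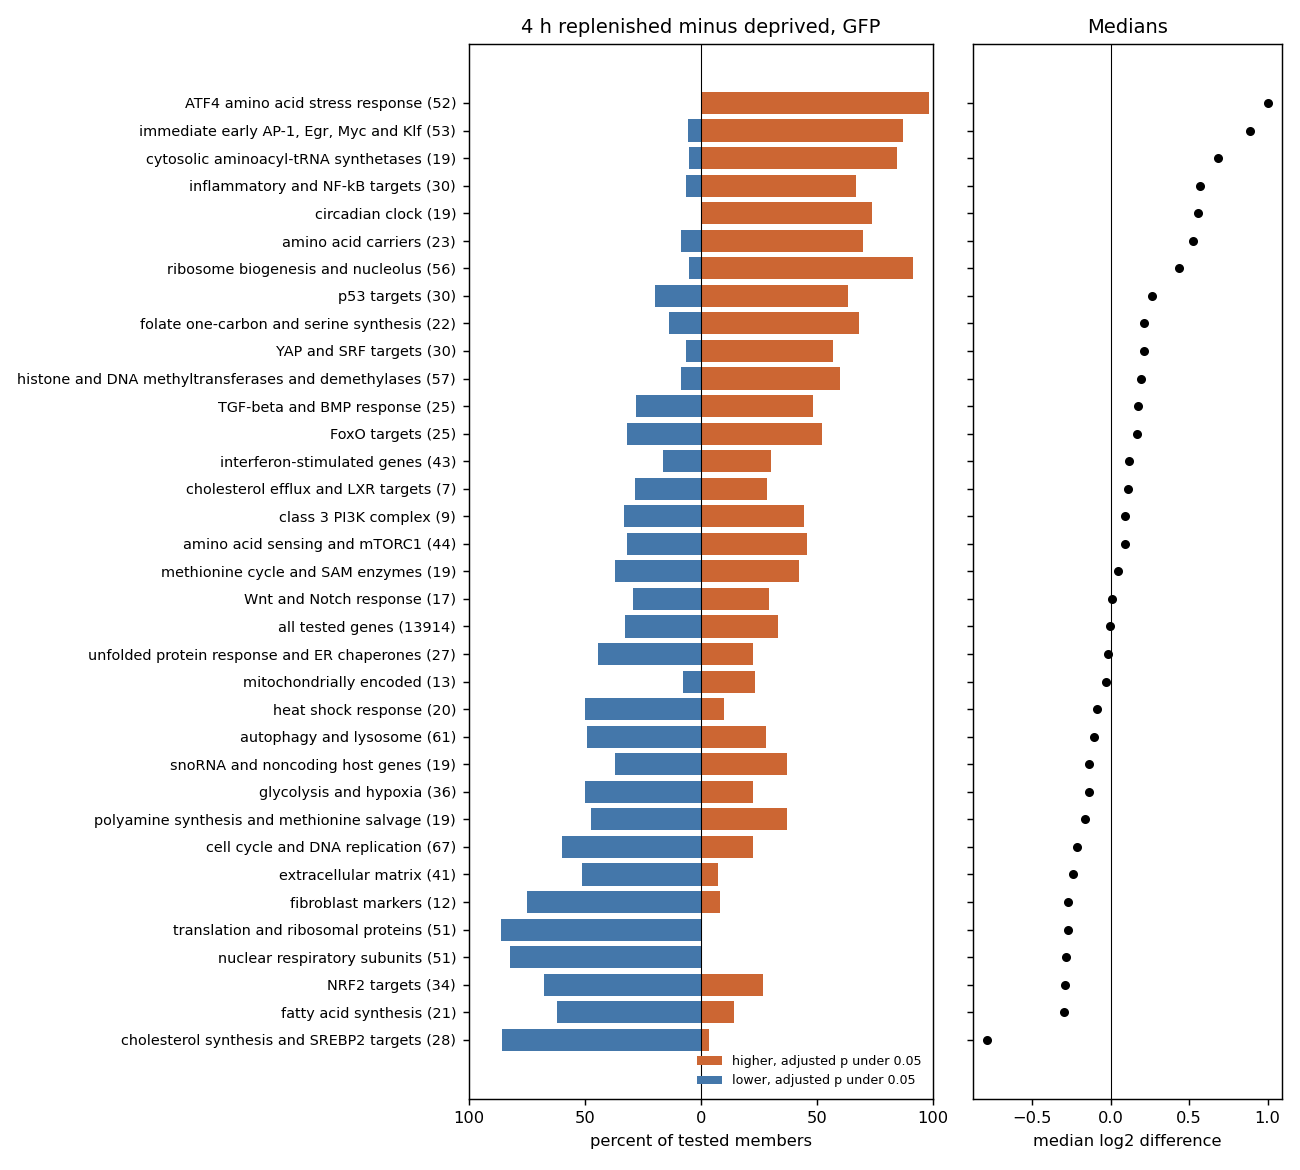
Share of tested members of each list called higher (orange, to the right) or lower (blue, to the left) in the 4 h columns, and the median log2 difference of the list; the number tested stands in brackets. The ATF4 list lies at the top with a median of 1.00, the cholesterol list at the bottom with −0.79, and all tested genes near 0.

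Cholesterol synthesis had the lowest median of the lists. Of 28 tested members 24 fell and 1, the lipid phosphatase gene Lpin1 (0.14), rose. The median was −0.79. Hmgcs1, which makes HMG-CoA, stood at 155, 152 and 156 CPM in the deprived columns and at 53.2, 56.2 and 50.0 CPM in the 4 h columns, a fall by 1.54 ± 0.04 (limma adjusted p = 6.42e-24). Acat2 differed by −1.43, Dhcr7 of the last synthesis steps by −1.15 and Fdps by −0.97, all past the threshold. Srebf2, which encodes SREBP2, fell by 0.62, whereas Scap, which escorts it, differed by −0.06 (adjusted p = 0.27); Lpin1, Srebf2 and Scap were named after their values were seen.

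Hmgcs1 is shown as the one member whose window holds the sterol regulatory element TCACNCCAC on either strand, at chr13:119690101-119690350 (GRCm38.p6, plus strand, 250 bases before the start, capitals for the element).
Hmgcs1: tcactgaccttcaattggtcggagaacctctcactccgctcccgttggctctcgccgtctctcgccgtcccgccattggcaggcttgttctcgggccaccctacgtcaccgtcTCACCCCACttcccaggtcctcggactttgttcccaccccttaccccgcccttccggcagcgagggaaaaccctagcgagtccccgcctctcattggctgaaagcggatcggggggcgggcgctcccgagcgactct
The element begins 137 bases before the start. It was found in 1 of 21 members with a full window (4.76%) against 1.24% of all promoters; the other members lack these exact letters in this window only.

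Fatty acid synthesis genes followed in weaker form, with 3 of 21 higher and 13 lower (median −0.30). The desaturase gene Scd2 and the elongase gene Elovl6 fell by 0.94 and 1.05, the citrate carrier gene Slc25a1 by 0.59 and Acly, which makes acetyl-CoA from citrate, by 0.48. The short LXR list of cholesterol efflux genes was split, with 2 of 7 higher and 2 lower: Abca1, the main exporter, read 20.6, 22.7 and 15.4 CPM against 32.9, 35.8 and 30.4 CPM (0.69 ± 0.18), and Nr1h2, an LXR gene, fell by 0.52.

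NRF2 targets were mostly lower, but not all: 23 of 34 fell and 9 rose (median −0.29). Nqo1, a quinone reductase, stood at 112, 109 and 109 CPM in the deprived columns and at 37.7, 38.1 and 36.4 CPM in the 4 h columns (−1.55 ± 0.05, limma adjusted p = 2.97e-23). Gstp1, a glutathione transferase, fell by 0.93, the sulfiredoxin gene Srxn1 by 0.79 and G6pdx, which opens the pentose phosphate pathway, by 0.75. Hmox1, heme oxygenase, went the other way and read 170, 164 and 171 CPM against 415, 422 and 474 CPM, a rise of 1.33 ± 0.05. Slc7a11, the cystine carrier that ATF4 also drives, rose by 1.62, and Nfe2l2, which encodes NRF2, by 0.71; these last 2 were named after their values were seen.
G6pdx is shown as the member with the largest fall whose window holds the antioxidant response element TGACNNNGC, on either strand, before the start (chrX:74428881-74429130, GRCm38.p6, minus strand, 250 bases before the start, capitals for the element).
G6pdx: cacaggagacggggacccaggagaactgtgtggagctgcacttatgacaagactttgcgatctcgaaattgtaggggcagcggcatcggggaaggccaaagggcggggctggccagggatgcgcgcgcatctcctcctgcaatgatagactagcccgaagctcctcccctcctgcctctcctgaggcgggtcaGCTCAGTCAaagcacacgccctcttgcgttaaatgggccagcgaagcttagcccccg
The element is read here as its reverse complement GCNNNGTCA and begins 57 bases before the start. Of 29 members with a full window 12 held it (41.4%), against 12.4% of all promoters and 16.8% of tested genes with a window. Among these members Nfe2l2 (0.71), Txnrd1 (0.70) and Abcc4 (0.29) rose, Mafg did not pass and the others fell. The list was drawn from known NRF2 targets, and a match of letters is again a description, not a binding site.

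Chaperone genes fell in part. Of 20 heat shock genes 10 fell and 2 rose (median −0.09): the constitutive chaperone gene Hspa8 read 1716, 1801 and 1761 CPM against 1007, 1021 and 1014 CPM (−0.83), Hspa1b fell by 1.10 and Hsph1 by 0.64. In the list of the unfolded protein response and ER chaperones, 6 of 27 rose and 12 fell (median −0.02). Among those that rose were Herpud1 (2.05), Dnajb9 (1.12) and the transcription factor gene Xbp1 (0.83), and among those that fell the chaperone genes Pdia4 (−0.40) and Calr (−0.34). Calr read 1437 to 1448 CPM against 1151 to 1190 CPM.

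Genes of the class 3 PI3K complexes changed in both directions: 4 of 9 rose and 3 fell (median 0.09). Over all tested genes 33.3% rose and 32.8% fell. Atg14, the subunit that directs the kinase to autophagosome sites, read 39.3, 37.1 and 36.2 CPM against 63.8, 68.9 and 68.1 CPM (0.78 ± 0.06). Uvrag, the subunit of the endosomal complex, rose by 0.43, Nrbf2 by 0.63 and the inhibitor Rubcn by 0.37. Pik3c3, the catalytic subunit, fell by 0.40 from 59.9 to 66.5 CPM to 47.9 to 48.7 CPM, and Becn1 fell by 0.19. The last of these was named after its value was seen.

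Of 61 autophagy and lysosome genes 17 rose and 30 fell (median −0.11). Sqstm1, the receptor p62, read 1726, 1678 and 1737 CPM against 2379, 2315 and 2381 CPM, a rise of 0.43 ± 0.03 (limma adjusted p = 2.59e-13). Wipi2, which binds the lipid product of the kinase, rose by 0.62, and the subunits of the lysosomal proton pump split between Atp6v1b2 (0.51) and Atp6v1a (−0.50). The amino acid sensing and mTORC1 list was divided too, with 20 of 44 higher and 14 lower (median 0.09). Eif4ebp1 rose by 0.63 and its relative Eif4ebp2 fell by 0.73, both encoding repressors of cap-dependent translation. Of 25 FoxO targets 13 rose and 8 fell (median 0.17), led by Txnip, an inhibitor of glucose uptake, which read 130 to 145 CPM against 542 to 573 CPM (1.98).

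Of 67 cell cycle and DNA replication genes 40 fell and 15 rose (median −0.21): the kinase gene Plk1 read 151, 146 and 158 CPM against 62.5, 68.2 and 71.9 CPM (−1.18), and the values were −1.10 for Ccnb1, cyclin B1, and −1.13 for Nusap1, both called. Ccnd1, cyclin D1, read 426, 426 and 448 CPM against 268, 265 and 264 CPM (−0.73). The rises included genes of replication licensing, Cdc6 (0.64), Mcm10 (0.53) and Cdt1 (0.52), and Mybl2 (0.86), named after their values were seen. In bulk RNA, fewer cells of a stage or type and less RNA per cell cannot be told apart.

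Matrix and fibroblast genes were also lower, and the summed fibroblast markers given above were lower with them. The sums of leukocyte, muscle and adipocyte, and neural markers were lower too, while that of endothelial markers was higher. Of the 5 tested neural markers, however, 3 rose and 2 fell (median 0.30). The part of these markers in the result was not tested. Of 41 matrix genes 21 fell and 3 rose (median −0.24), and of 12 tested fibroblast markers 9 fell and 1 rose (median −0.27). Col3a1, a fibrillar collagen gene, read 1589, 1562 and 1456 CPM against 830, 733 and 707 CPM (−1.05 ± 0.06). S100a4 fell by 1.18, Vim by 0.55 and Loxl1, which crosslinks elastin, by 0.63. Glycolysis and hypoxia genes fell in 18 of 36 cases and rose in 8 (median −0.14), with Pfkm at −1.02, Ndrg1 at 1.38 and Hk2 at 0.94. Other large falls were in D17H6S56E-5 (−1.94), the aldehyde dehydrogenase gene Aldh3a1 (−1.89), the inositol carrier gene Slc5a3 (−1.81), Scara5 (−1.68), the spindle gene Knstrn (−1.56), Pdlim2 (−1.48), the chemokine gene Cx3cl1 (−1.44) and Snn (−1.43).

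The differences in the 4 h columns resembled another contrast of the table that shares no library with them, 1 h replenished minus basal under the GFP headings. In that contrast 4057 genes (29.2%) were higher and 4125 (29.6%) lower. Across the 13914 genes, which are not independent replicates, Pearson's r between the differences was 0.91 and Spearman's rho 0.87. Of the 329 genes that rose by at least 1 in the 4 h columns, 328 (99.7%) were also called higher there, which is 8.09% of all calls in that direction. Of the 115 that fell by at least 1, 113 (98.3%) were also lower (2.74% of those calls). By heading, these are methionine given back for 4 h after deprivation and for 1 h against basal medium. In the second reading they are deprivation in Vps15KO and in WT cells.

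The difference between these contrasts was tested directly and was called for 1462 genes (10.5%), 837 of them with the larger value in the 4 h contrast and 625 with the smaller. That split turned round with voom on recovered counts (677 and 724) and widened with each library shifted to one median (974 and 529). Bhlhe40, a transcriptional repressor of the clock, rose by 0.96 in the 4 h columns and differed by −0.08 in the other contrast (difference 1.03 ± 0.08, limma adjusted p = 7.29e-10). Early response and ribosome assembly genes were among those with a larger value in 29 of 53 and 29 of 56 cases, with 0 smaller in either list. Of 52 ATF4 genes 18 had a smaller and 1 a larger value, with Trib3 at 2.84 against 3.66. Of 34 NRF2 targets 14 had a smaller and 0 a larger value, with Nqo1 at −1.55 against −0.84 and Hmox1 at 1.33 against 1.89. The count of 1462 fell to 911 without basal GFP library 3, 908 without 1 h GFP library 1 and 951 without 4 h GFP library 3. In the second reading, these are genes whose response to deprivation differed between Vps15KO and WT cells.

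**Figure D4:**
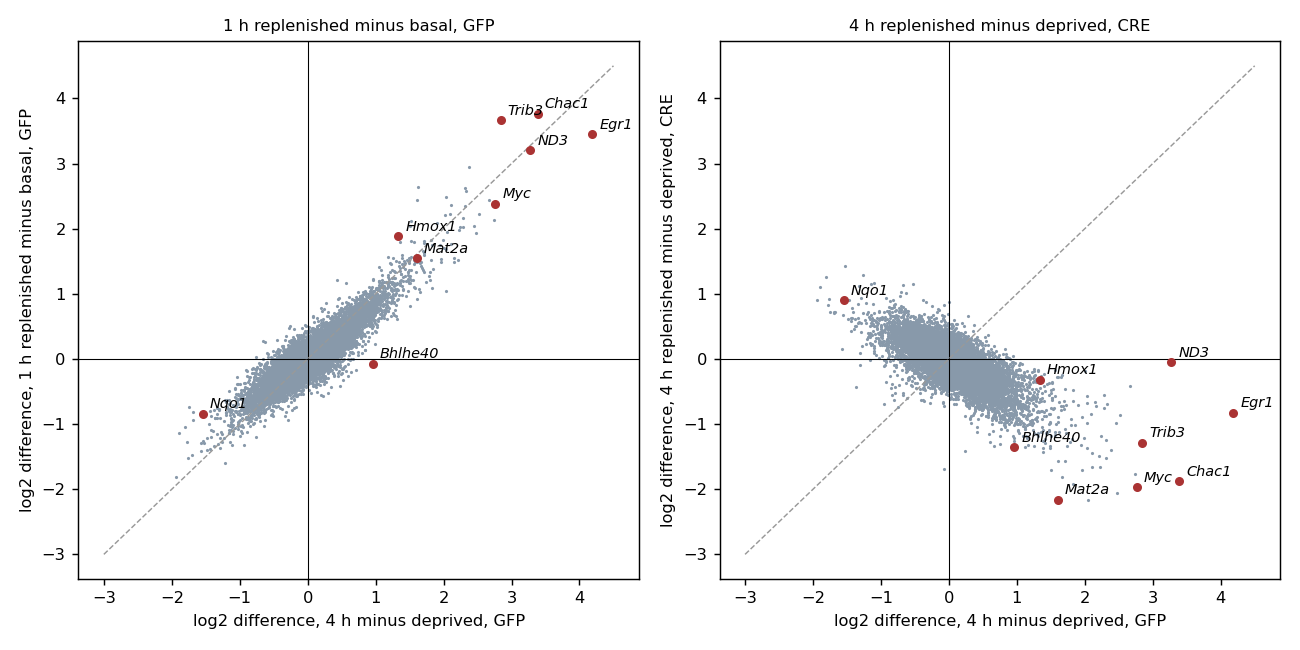
Log2 difference of each tested gene in the 4 h minus deprived contrast under GFP (horizontal axes) against 1 h minus basal under GFP (left) and 4 h minus deprived under CRE (right); the dashed line marks equal values. Points follow the line on the left (r 0.91) and run against it on the right (r −0.74).

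Under the CRE headings the same pair of media gave differences of mostly opposite sign. There 3614 genes (26%) were higher and 3597 (25.9%) lower, and Pearson's r with the GFP contrast was −0.74 (rho −0.71). Of the 329 large risers, 306 (93.0%) were lower under CRE and 0 were higher. Of the 115 large fallers, 101 (87.8%) were higher under CRE and 1 was lower. The difference between the contrasts was called for 9618 genes (69.1%). Median differences of the lists show it: ATF4 genes 1.00 under GFP and −0.32 under CRE, early response genes 0.89 and −0.77, cholesterol genes −0.79 and 0.28, clock genes 0.56 and −0.54. In the second reading the CRE columns are Vps15KO cells with methionine back for 1 h and 4 h, and the contrast is 4 h minus 1 h of replenishment.

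Levels over all 8 headings place the compared groups in the series. The mean log2 value of the ATF4 list was lowest in the basal GFP columns (10.83), followed by deprived GFP (11.17), and highest in 4 h GFP (12.29), deprived CRE (12.16) and 1 h GFP (12.08). Chac1 averaged 27.3 CPM in basal, 64.7 in deprived, 406 in 1 h and 706 in 4 h GFP columns, and 244, 520, 57.2 and 139 CPM in the basal, deprived, 1 h and 4 h CRE columns. Cholesterol genes stood at 10.57 in the deprived, 10.22 in the basal, 9.81 in the 4 h and 9.49 in the 1 h GFP columns. Under CRE they stood at 10.05 in the 4 h, 9.72 in the deprived, 9.56 in the 1 h and 9.46 in the basal columns. The lists were not simply inverse: the 1 h CRE columns were low in cholesterol genes and, at 11.31, in ATF4 genes as well. In the second reading the 4 highest ATF4 means (the fourth is basal CRE, 11.94) fall in the columns of deprived cells and of those given methionine back for 1 h.

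Interferon-stimulated genes were called no more often than all tested genes: 13 of 43 rose and 7 fell (median 0.11), with Cxcl10 at 1.74, Mx2 at 1.58 and Oasl1 at 1.20 and Trim25 at −0.35. Their list mean was high in both, 10.98 in the deprived and 11.13 in the 4 h columns, and in the deprived and 4 h CRE columns (11.07 and 10.99). It was lower in the basal and 1 h columns, at 9.98 and 10.16 under GFP and 10.26 and 10.01 under CRE. By heading, the high columns are the deprived and 4 h media under both viruses. In the second reading they are the 4 Vps15KO groups and the low columns are the 4 WT groups.

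**Figure D5:**
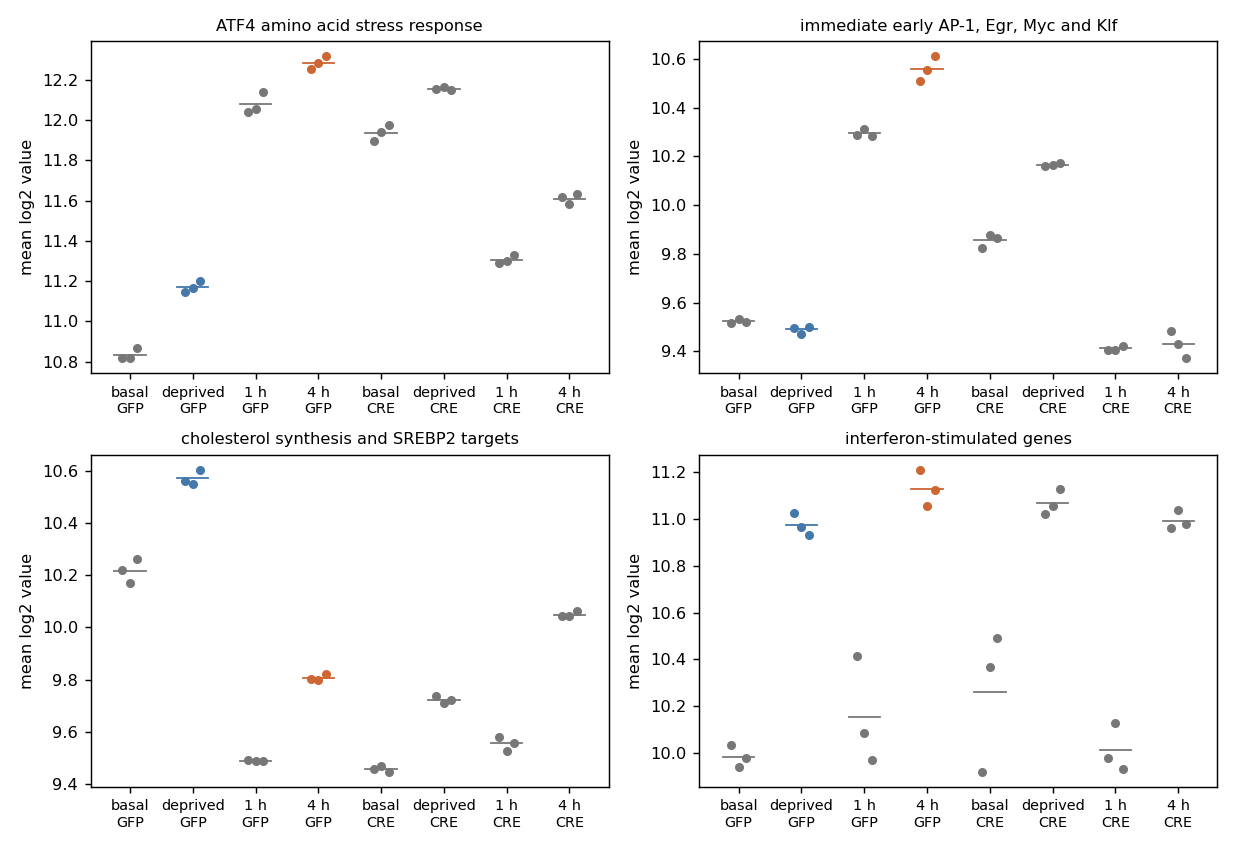
Mean log2 value of 4 gene lists in each of the 24 libraries (points) by column heading, with bars at group means, the deprived GFP columns in blue and the 4 h GFP columns in orange. ATF4 and early response genes are highest in the 4 h GFP columns, cholesterol genes are highest in the deprived GFP columns, and interferon-stimulated genes alternate between high and low headings.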

How the data were processed

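Polyadenylated RNA of mouse embryonic fibroblasts was sequenced in 24 libraries (8 groups of 3). The authors deposited log2 values after a variance-stabilizing transformation over all 24 libraries; STAR 2.7.10b, featureCounts, DESeq2, limma and build mm10 are listed per the submitters' processing notes. Filters and count settings are not given in the sources used here. Groups follow the column headings. Inverting the transformation gave whole counts for 100% of values (tolerance 0.01), used for depth, CPM and 1 alternative; CPM are not scaled to gene length.

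Genes with a mean at least 1 above the lowest value (13914 of 32266) were tested with limma 3.58.1 (R 4.3.3; trend, robust) on the deposited log2 values, with 1 mean per group over 24 libraries and Benjamini-Hochberg adjustment, threshold 0.05. On simulated data (13914 genes) 94 of 100 changes of 1 and 76 of 100 of 0.5 were called, with 4 false calls. Changes were placed only in genes above a count limit, all other genes were left unchanged, and no library was made to stand apart. In the real data most genes were called, so these rates need not hold for the comparison. Promoter windows and gene positions are from RefSeq (GRCm38.p6). Named were Pik3r4, Mat2a, Atf4, Sqstm1, up to 5 members per list with the smallest adjusted p, the 12 largest rises and falls that met limits on level and overlap, and the 8 clearest differences from each other contrast. Members, lists and tests were chosen with earlier results of these data known. A few named genes are not reported here. Alternatives were another scaling, no filter, no trend, a replicate block, voom, fewer groups, and each library of the groups in a contrast left out in turn. Libraries of the basal and 1 h CRE groups, which enter only the spread, were never left out.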

Additional observations from a re-analysis of the deposited data

Results flagged for a closer look

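Results are given here because the difference between contrasts passed its test. The 4 h minus deprived difference under CRE differed from that under GFP for 9618 genes. The value under CRE minus that under GFP was −5.26 for Chac1, −5.01 for Egr1, −4.73 for Myc, −4.53 for Junb, −4.51 for Plk2, −4.22 for Herpud1, −4.12 for Trib3 and −3.83 for Ppp1r15a. These genes rose under GFP and fell under CRE. Read by library number, these values set 4 h minus 1 h of replenishment against deprivation minus basal medium, all in Vps15KO cells.

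The 4 h minus deprived difference also differed from that of 1 h minus basal under GFP for 1462 genes. The first minus the second was 1.03 for Bhlhe40, 0.73 for Egr1 and 0.70 for Dusp5. It was −0.82 for Trib3, −0.71 for Nqo1, −0.55 for Hmox1, −0.47 for Srxn1 and −0.42 for Fth1, the ferritin heavy chain gene. Read by library number, this is the response to deprivation in Vps15KO minus that in WT cells. Whether the headings are displaced, which sets what both contrasts mean, was not tested.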

How the results depend on the processing

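The count of 9193 genes past the threshold stayed within 1.5 times under every alternative run, from 8611 to 8774 with 1 library of a compared group left out to 9600 with only the compared groups in the fit. Shifting each library to one median moved the median difference to −0.07 and the split to 3878 higher and 5465 lower. With the replicate block there were 4648 higher and 4607 lower genes; same-numbered libraries had correlations of deviations of 0.09, 0.03 and 0.13, so the numbers were not taken as pairs. In the 4 h minus deprived comparison under GFP, Pik3r4 kept its direction and missed the threshold in all settings. Its difference between the CRE and GFP contrasts was just past the threshold, at −0.16 ± 0.07 (limma adjusted p = 0.0458). Such a call was made for 69.1% of all tested genes. The count of 1462 genes that differ between the 4 h and 1 h contrasts was 961 without the filter, turned its split to 677 higher and 724 lower with voom, and ran from 908 to 1492 with 1 library left out: 911 without basal GFP library 3, 908 without 1 h GFP library 1 and 951 without 4 h GFP library 3; the cause was not tested. Of the 207 values of single genes, 1, ATP8, lost its call in an alternative, and Mylip, COX1 and Cd68 gained one in some. No value called in the main fit changed sign. A change of sign was not looked for in values without a call there. The fit without CRE 4 h library 3, added after seeing the data, called 9526 genes. List medians moved under the median shift in 35 of 35 lists, by the shift itself, and those of the methionine cycle (−0.02) and Wnt and Notch (−0.06) lists changed sign. Counts in lists with small medians depended on it too. Under the shift 25 methyltransferase and demethylase genes rose and 8 fell. For YAP and SRF targets these counts were 14 and 4, and for FoxO targets 11 and 10. Lists with large medians changed little: 50 ATF4 genes rose and 0 fell, and 0 cholesterol genes rose and 25 fell. With voom on recovered counts 6 medians moved, to values from −0.18 (polyamine list) to 1.05 (ATF4 list), without a change of sign.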

Other observations

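ND3, a complex I subunit gene of the mitochondrial genome, was high under 2 of the 8 headings only. Its mean was 51.6 CPM in the 4 h GFP and 36.8 CPM in the 1 h GFP columns and 2.36 to 3.86 CPM under the other 6 headings. Read by library number, the 2 high groups are the Vps15KO and WT cells deprived of methionine. ND2, also a complex I message, passed the test with a fall and read 474 to 480 CPM in the 4 h columns.

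Mat2a ordered the headings differently from Chac1. It averaged 726 CPM in the 1 h and 680 in the 4 h GFP columns, 600 in the deprived and 596 in the basal CRE columns, and 239 in basal and 218 in deprived GFP columns. It was lowest in the 1 h and 4 h CRE columns, at 172 and 137 CPM, below its level in the basal GFP columns, whereas Chac1 was lowest in the basal GFP columns. By library number the 4 highest Mat2a groups are the deprived cells and those with methionine back for 1 h, and the lowest are WT and Vps15KO cells with methionine back for 4 h.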
